A study of Bos taurus with 6 samples.

Results

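The 10 transcripts described here encode TEAD transcription factors and parts of the Hippo pathway, measured by RNA-seq in day 7 blastocysts of cattle (Bos taurus). The members were taken by symbol from the count table: TEAD4, TEAD1, YAP1, WWTR1 (which encodes TAZ), VGLL4, LATS1, LATS2, NF2, AMOT and AMOTL2. All 10 of the 10 symbols were among the 12826 genes of the table, and all 10 were among the 12732 genes tested. The tested ketone body was beta-hydroxybutyrate (BHB): 3 libraries came from blastocysts treated with it, and 3 control libraries from blastocysts without it. Both groups were produced in vitro from slaughterhouse material, and each library came from a pool of embryos of mixed cell types. The sources used here give neither the dose nor the timing of BHB, nor the number or sex of the embryos per pool. In such bulk pools, fewer cells of a type and less RNA per cell cannot be told apart.

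The Hippo pathway couples cell contact and polarity to transcription. NF2 and the angiomotins AMOT and AMOTL2 help to activate the kinases LATS1 and LATS2, which phosphorylate the coactivators YAP1 and WWTR1 and keep them out of the nucleus. Unphosphorylated YAP1 and WWTR1 enter the nucleus and bind TEAD factors, and VGLL4 competes with them for TEAD. In the mouse blastocyst, YAP1 is nuclear in the outer cells, where TEAD4 drives Cdx2 and Gata3 of the trophectoderm, and is held in the cytoplasm in the inner cells. These steps act largely on the protein and its location, which RNA levels do not measure.

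Total counts ran from 6440732 to 7348949 in BHB libraries and from 7925889 to 8176648 in control libraries. A refit of the authors' deposited p-values matched a model that joins BHB 1 with control 1, BHB 2 with control 2 and BHB 3 with control 3, and these are called pairs below. Markers of the blastocyst lineages were present, with 8 of 10 trophectoderm, 5 of 7 inner cell mass and 5 of 6 primitive endoderm markers in the table. EOMES, ELF5, SOX2, DPPA5 and SOX17 were not among its genes. Of the cumulus and granulosa cell markers 3 of 10 were present, with summed levels of 28.2 to 35.3 CPM in BHB libraries and 29.6 to 37.5 CPM in control libraries. None of 5 leukocyte markers was in the table. CPM are counts scaled to a common library total after TMM normalization.

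None of the 10 members differed between BHB and control blastocysts past the threshold. By edgeR's quasi-likelihood test, with p-values adjusted over all tested genes (Benjamini-Hochberg, threshold 0.05), each member had adjusted p = 0.999. That test called 0 of 12732 genes (0%), with 347 genes and 0 members at an unadjusted p under 0.05. DESeq2's Wald test called 6 genes (0.0468%) and limma-voom called 0, with 0 members in both. Within pairs, edgeR called 0 genes and DESeq2 called 35 (0.273%), and again 0 members. At an unadjusted p under 0.05 the edgeR test within pairs had 1 member, WWTR1, and 8.2% of tested genes.

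The BHB and control libraries overlapped in each of the 10 members, while the libraries of BHB and control lay fully apart in 7.84% of tested genes. Fold changes were positive in 9 members and negative in 1, with a median log2 fold change of BHB over control of 0.15, against -0.005 over all tested genes. The members had been chosen with earlier results of these libraries known, and the median was not tested. In 2 members BHB was higher in 3 of 3 pairs and in 1 it was lower in 3 of 3 pairs. Among all tested genes those shares were 14.5% and 15.7%, or 30.3% in either direction.

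**Figure D1:**
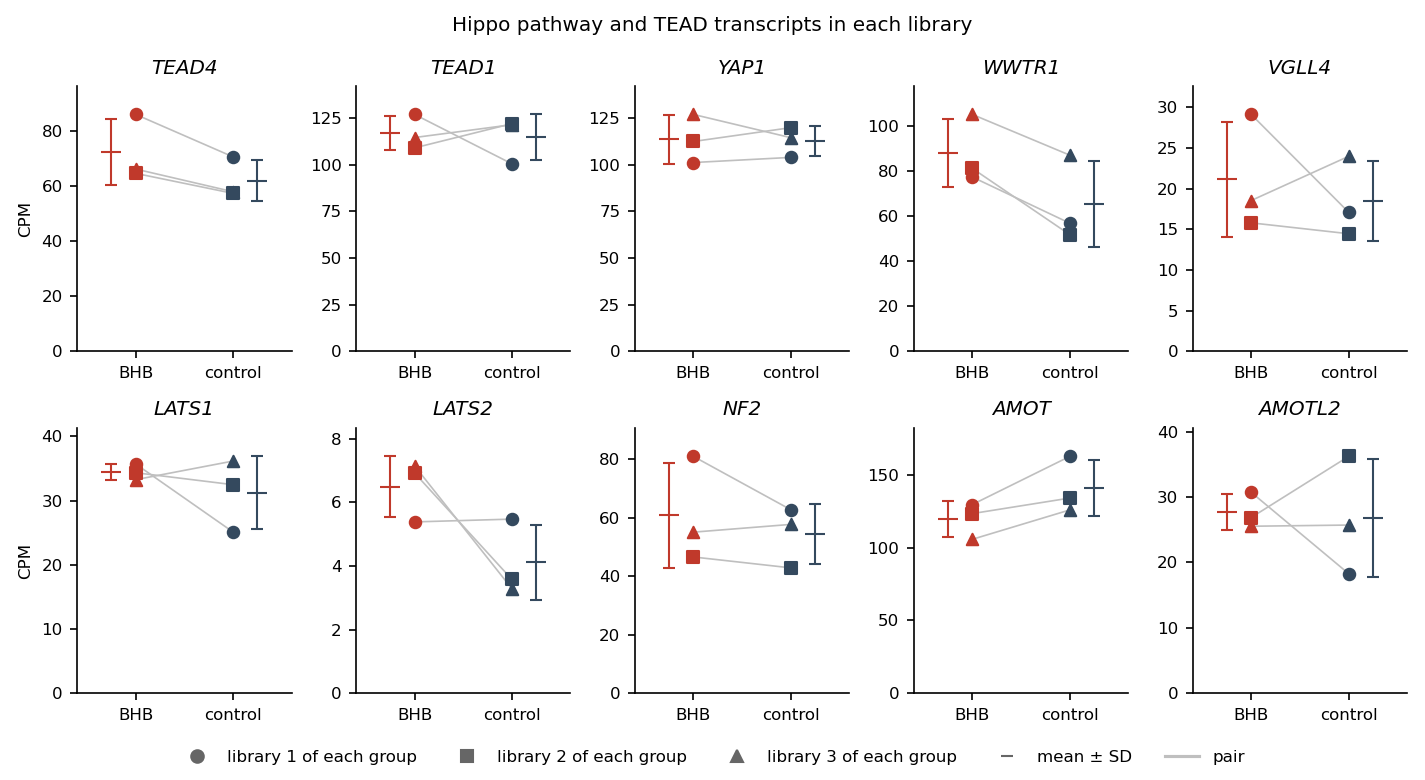
Level of each of the 10 members in CPM (linear axes from 0), with BHB libraries on the left and control libraries on the right of each panel; symbols number the libraries, grey lines join the pairs, and bars give the mean ± SD of 3 libraries. The groups overlap in every panel, and relative to their level the group means lie farthest apart in LATS2 and WWTR1.

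The TEAD factors bind DNA and carry no strong activation domain of their own. TEAD4, the family member that the mouse embryo needs to form trophectoderm, was at 86.1, 64.7 and 66.2 CPM in BHB libraries 1 to 3, against 70.7, 57.4 and 58.0 CPM in control libraries 1 to 3. BHB 1 held the highest level, and control 1 lay above BHB 2 and BHB 3, so the groups overlapped. Within every pair the BHB library was higher, by 0.28, 0.17 and 0.19 on the log2 scale in pairs 1 to 3. The log2 fold change over all libraries was 0.22 (SE 0.17, unadjusted p = 0.218 in edgeR), with a 95% interval for the fold of 0.897 to 1.52.

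TEAD1, a broadly expressed family member, was at 127, 109 and 115 CPM in BHB libraries, against 100.45, 122 and 121 CPM in control libraries. The highest and the lowest library both belonged to pair 1, and the pairs differed in direction (0.34, -0.16 and -0.08). Its log2 fold change was 0.03 (SE 0.14), with a 95% interval for the fold of 0.820 to 1.27. The other family members were read from a list of pathway genes. TEAD2 was at 8.22, 11.2 and 8.46 CPM in BHB libraries, against 6.95, 7.03 and 7.40 CPM in control libraries. The TEAD2 groups did not overlap, but the gene did not pass the test (log2 fold change 0.38, SE 0.26). TEAD3 averaged 20.7 ± 0.956 CPM in BHB and 22.1 ± 1.96 CPM in control libraries (SD, n = 3 each).

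YAP1, the coactivator that gives the pathway its main output, was at 101, 112 and 127 CPM in BHB libraries, against 104, 119.85 and 114 CPM in control libraries. The means were 114 ± 12.9 CPM in BHB and 113 ± 8.10 CPM in control libraries (SD, n = 3 each). Its log2 fold change was 0.01 (SE 0.14), with a 95% interval for the fold of 0.810 to 1.25. YAP1 and TEAD1 were the steadiest members across all 6 libraries: the SD of log2 CPM was 0.12 in both. Of tested genes within 0.5 log2 CPM of their mean level, 19.4% varied less than YAP1 and 20.5% less than TEAD1.

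WWTR1, the paralogue of YAP1, was at 77.2, 81.0 and 104.9 CPM in BHB libraries, against 56.8, 51.7 and 86.9 CPM in control libraries. Control 3 lay above BHB 1 and BHB 2, and the other control libraries lay below all BHB libraries. WWTR1 was higher with BHB in each pair, by 0.44, 0.65 and 0.27 on the log2 scale. The means were 87.7 ± 15.0 CPM in BHB and 65.1 ± 19.02 CPM in control libraries (SD, n = 3 each), a log2 fold change of 0.43 (SE 0.22, unadjusted p = 0.081 in edgeR). A fold of at least this size in either direction was found in 14.7% of tested genes.

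Within pairs the spread around the WWTR1 difference was smaller. The blocked edgeR test gave a log2 fold change of 0.45 (SE 0.13, unadjusted p = 0.00493), which did not pass over all genes (adjusted p = 0.398), and the blocked DESeq2 test gave adjusted p = 0.445. In the authors' deposited table WWTR1 had a log2 fold change, as control over BHB, of -0.45 and an adjusted p of 0.017. It was the only member under 0.05 there, where 5.04% of genes were. That deposited p-value matched a joint test of pair and treatment, so it does not separate the BHB difference from differences between pairs. Tested for pairs alone, with treatment in the model, WWTR1 had adjusted p = 0.0892 in edgeR.

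VGLL4, which competes with YAP1 and WWTR1 for TEAD factors, was at 29.1, 15.8 and 18.5 CPM in BHB libraries, against 17.1, 14.5 and 24.0 CPM in control libraries. The highest library was BHB 1, and the pairs differed in direction (0.76, 0.13 and -0.37). Its log2 fold change was 0.19 (SE 0.28), with a 95% interval for the fold of 0.733 to 1.78. The fitted value turned to -0.11 without BHB 1.

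The kinase LATS1 was at 35.7, 34.3 and 33.3 CPM in BHB libraries, against 25.1, 32.5 and 36.2 CPM in control libraries. The BHB libraries lay close together (34.4 ± 1.22 CPM, SD, n = 3) and inside the range of the control libraries (31.3 ± 5.63 CPM, SD, n = 3). Its log2 fold change was 0.14 (SE 0.18), with a 95% interval for the fold of 0.829 to 1.46.

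The related kinase LATS2, itself a target of YAP1, had the largest fitted fold among the members. It was at 5.39, 6.92 and 7.15 CPM in BHB libraries, against 5.48, 3.58 and 3.29 CPM in control libraries. Control 1 lay just above BHB 1, and the other control libraries lay below all BHB libraries. These levels rest on 40, 50 and 49 counts in BHB libraries and 41, 27 and 28 counts in control libraries. Counting error alone gives a coefficient of variation of 19.2% at the lowest of these. The log2 fold change was 0.66 (SE 0.33, unadjusted p = 0.078 in edgeR), with a 95% interval for the fold of 0.940 to 2.65. Per pair the difference was -0.02, 0.90 and 1.06.

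NF2 encodes merlin, a membrane scaffold that recruits LATS kinases. It was at 80.8, 46.5 and 55.0 CPM in BHB libraries, against 62.6, 42.8 and 57.65 CPM in control libraries. Both pair 1 libraries were the highest of their group and both pair 2 libraries the lowest. The log2 fold change between BHB and control was 0.16 (SE 0.23), and the test between pairs gave adjusted p = 0.0984. The fitted NF2 value turned to -0.10 without BHB 1.

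AMOT, an angiomotin that in the mouse blastocyst activates LATS in the inner cells, was the only member with a lower mean under BHB. It was at 129, 123 and 106 CPM in BHB libraries, against 162, 133.9 and 126 CPM in control libraries. BHB 1 lay above control 3, so the groups overlapped, and AMOT was lower with BHB in each pair, by -0.33, -0.12 and -0.25. Its log2 fold change was -0.24 (SE 0.15, unadjusted p = 0.148 in edgeR), with a 95% interval for the fold of 0.672 to 1.07. AMOT is X-linked, and the sex make-up of the pools is not given. XIST, the transcript of the inactive X chromosome, was at 80.3, 81.0 and 190.1 CPM in BHB libraries, against 82.4, 116 and 88.5 CPM in control libraries. BHB 3 thus had both the highest XIST and the lowest AMOT level. Control 2 went the other way, with the next highest XIST and the highest AMOT level after control 1. The part of sex in the AMOT values was not tested. None of 9 Y-linked genes looked for was in the table. The sources name no genome build, so their absence gives no reading of sex.

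AMOTL2, the related angiomotin-like gene and another target of YAP1, was at 30.7, 26.9 and 25.5 CPM in BHB libraries, against 18.3, 36.2 and 25.7 CPM in control libraries. The control libraries held both the highest and the lowest value, and the BHB libraries lay between them. The log2 fold change was 0.05 (SE 0.25), with a 95% interval for the fold of 0.704 to 1.53. AMOTL1, the other angiomotin-like gene, averaged 12.1 ± 2.27 CPM in BHB and 10.6 ± 3.23 CPM in control libraries (SD, n = 3 each).

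**Figure D2:**
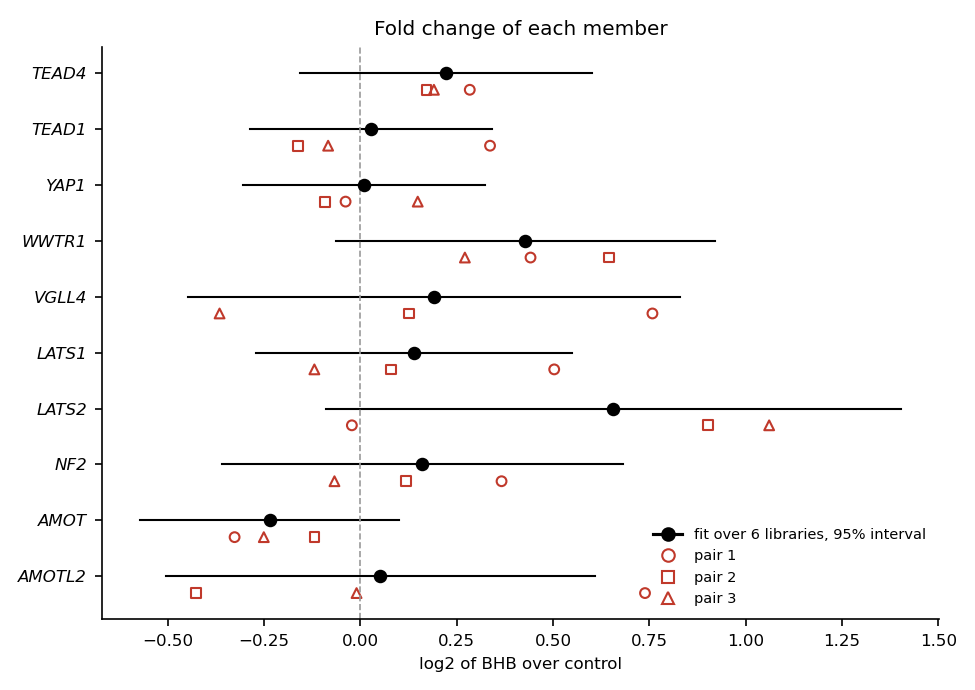
Log2 of BHB over control for each member: filled points and lines give the edgeR estimate over 6 libraries with its 95% interval, and open symbols give the difference within each pair. Every interval crosses 0; WWTR1 and TEAD4 have all pairs on the higher side and AMOT has all pairs on the lower side.

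Paralogues were also set against each other within each library, since a ratio of genes in 1 library does not depend on how libraries are scaled. The log2 ratio of YAP1 to WWTR1 counts was 0.39, 0.47 and 0.28 in BHB libraries, against 0.87, 1.21 and 0.40 in control libraries. The ratio was lower with BHB in each pair, and control 3 lay below BHB 2, so the groups overlapped. The difference was -0.45, with an exact two-sided permutation p of 0.2. With 3 libraries against 3, that test cannot go below 0.1.

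The log2 ratio of TEAD4 to TEAD1 averaged -0.70 ± 0.12 in BHB and -0.89 ± 0.33 in control libraries (SD, n = 3 each; exact permutation p = 0.4). That of LATS2 to LATS1 averaged -2.39 ± 0.27 in BHB and -2.91 ± 0.65 in control libraries (SD, n = 3 each; exact permutation p = 0.4). That of AMOTL2 to AMOT averaged -2.10 ± 0.08 in BHB and -2.44 ± 0.64 in control libraries (SD, n = 3 each; exact permutation p = 0.6). In each of the 4 ratios the 3 BHB libraries lay closer together than the 3 controls, a difference in spread that was not tested. Among single members, TEAD4, YAP1, VGLL4 and NF2 had the larger SD of CPM in BHB libraries, and the other members in control libraries. Adjusted over the 4 ratios, the exact permutation p was 0.533 for the first 3 and 0.6 for AMOTL2 to AMOT.

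**Figure D3:**
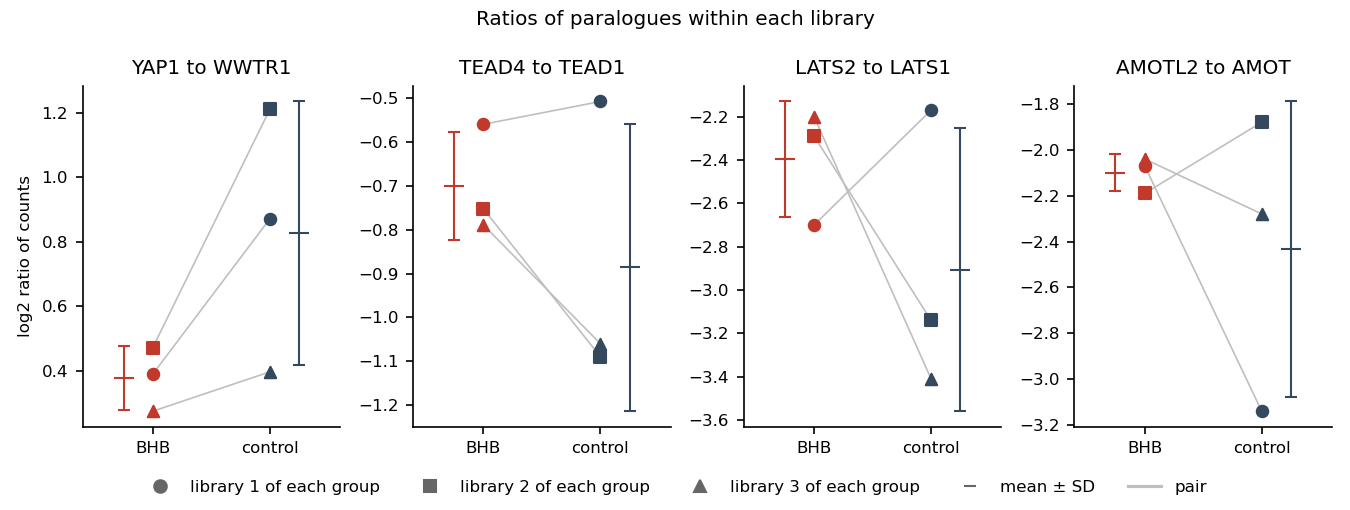
Log2 ratio of the counts of 4 pairs of paralogues in each library (axes do not start at 0), with BHB on the left and control on the right; symbols number the libraries, grey lines join the pairs and bars give the mean ± SD of 3 libraries. The YAP1 to WWTR1 ratio is lower with BHB in every pair; the other ratios differ in direction between pairs.

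The rest of the pathway was read from 4 lists of kinases, junction regulators, polarity genes and TEAD partners. Of their 87 genes, 79 were in the table and were tested, and 0 passed in limma-voom or, with or without pairs, in edgeR or DESeq2. The edgeR test had 2 of the 79 at an unadjusted p under 0.05, both higher with BHB, where 2.73% of all tested genes had such a p. The test within pairs had 6, of which 5 were higher, where 8.2% of all tested genes had such a p. Fold changes were positive in 42 and negative in 37, with a median of 0.02. The groups did not overlap in 6 of the 79, with BHB higher in 4 and lower in 2, against 7.84% of all tested genes.

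Among 18 further kinases and adaptors, 12 had a positive log2 fold change (median 0.10). The upstream kinases STK3 and STK4 phosphorylate LATS kinases. STK3 was at 64.3, 69.2 and 69.6 CPM in BHB libraries, against 51.3, 65.0 and 55.5 CPM in control libraries (log2 fold change 0.24, SE 0.15). STK4 averaged 22.1 ± 2.88 CPM in BHB and 20.4 ± 8.34 CPM in control libraries (SD, n = 3 each; chosen after its values were seen). STK38, a kinase related to LATS that also phosphorylates YAP1, was at 40.5, 58.0 and 76.7 CPM in BHB libraries, against 27.2, 49.3 and 45.7 CPM in control libraries. It was higher with BHB in each pair and overlapped between groups (log2 fold change 0.52, SE 0.28; within pairs adjusted p = 0.407 in edgeR). STK25, which activates LATS, had a log2 fold change of 0.39 (SE 0.20).

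Of 28 upstream and junction regulators, 14 were positive and 14 negative (median -0.02). PPP2R1A, the scaffold subunit of the phosphatase that acts on STK3 and STK4 within the STRIPAK complex, averaged 113 ± 0.398 CPM in BHB and 136 ± 18.6 CPM in control libraries (SD, n = 3 each). RASSF1, a scaffold that binds STK3 and STK4, averaged 20.1 ± 2.12 CPM in BHB and 24.9 ± 1.43 CPM in control libraries (SD, n = 3 each). In PPP2R1A and RASSF1 all BHB libraries lay below all controls, as in 3.78% of tested genes. In AJUBA, a LIM domain protein that inhibits LATS kinases, all BHB libraries lay above all controls (6.54 ± 0.519 CPM in BHB and 5.16 ± 0.656 CPM in control libraries, SD, n = 3 each). None of these genes passed the test. DLG1, a polarity scaffold, had a log2 fold change of -0.26 (SE 0.16).

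Of 17 apical polarity and cytoskeleton genes, 9 were positive and 8 negative (median 0.04). The edgeR test had 1 of the 17 at an unadjusted p under 0.05, and the test within pairs had 2, all higher with BHB. Over all tested genes those shares were 2.73% and 8.2%. PRKCI, the atypical protein kinase C of the apical domain, was at 327, 302 and 363 CPM in BHB libraries, against 229.8, 212.5 and 341 CPM in control libraries. Control 3 again lay among the BHB libraries (log2 fold change 0.34, SE 0.19, unadjusted p = 0.102 in edgeR).

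Of 16 TEAD or YAP1 partners, 7 were positive and 9 negative (median -0.03). TP53BP2, a scaffold protein that binds YAP1, was at 28.0, 31.7 and 37.9 CPM in BHB libraries, against 22.7, 18.03 and 25.5 CPM in control libraries. All its BHB libraries lay above all controls, as in 4.06% of tested genes (log2 fold change 0.56, SE 0.20, unadjusted p = 0.021 in edgeR). YWHAG, an adaptor of the family that holds phosphorylated YAP1 in the cytoplasm, had a log2 fold change of 0.27 (SE 0.18). TP73, a transcription factor that YAP1 can coactivate, averaged 1.25 ± 0.737 CPM in BHB and 2.15 ± 0.271 CPM in control libraries (SD, n = 3 each).

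Target genes were read from a published human signature of 22 genes that respond to YAP1 and TEAD factors, of which 18 were in the table. Without pairing 0 of the 18 passed in edgeR, DESeq2 or limma-voom. At an unadjusted p under 0.05 edgeR had 2, both lower with BHB, and 2.73% of all tested genes. Within pairs it had 4, all lower with BHB, and 8.2% of all tested genes. These were NT5E and DOCK5, described below, CCDC80 and MYOF. Per pair the difference was -1.84, 0.36 and -2.85 in CCDC80, and -0.145, -0.38 and -0.28 in MYOF. Without pairing, fold changes were positive in 10 and negative in 8 (median 0.03). Within pairs they were positive in 8 and negative in 10 (median -0.036). The secreted matrix proteins CCN1 and CCN2, widely used readouts of YAP1, were chosen after their values were seen. CCN1 averaged 22.1 ± 0.830 CPM in BHB and 17.6 ± 4.54 CPM in control libraries (SD, n = 3 each), and its pairs differed in direction (0.83, -0.02 and 0.26). CCN2 was at 41.5, 29.1 and 21.3 CPM in BHB libraries, against 15.1, 13.7 and 33.9 CPM in control libraries, and it was higher with BHB in pairs 1 and 2 but not in pair 3 (1.44, 1.08 and -0.67).

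NT5E, the ecto-nucleotidase gene of the signature, was the 1 target called within pairs by DESeq2, which called 0.273% of all genes. It was at 2.96, 2.22 and 12.0 CPM in BHB libraries, against 12.8, 9.28 and 34.8 CPM in control libraries. NT5E fell by 1.87 on the log2 scale in that fit (adjusted p = 0.000137), and the blocked edgeR test gave adjusted p = 0.0624. DOCK5, a guanine nucleotide exchange factor for Rac, averaged 8.36 ± 2.33 CPM in BHB and 13.1 ± 1.88 CPM in control libraries (SD, n = 3 each; log2 fold change -0.64, SE 0.28). TGFB2, a growth factor, averaged 11.1 ± 1.85 CPM in BHB and 7.63 ± 1.17 CPM in control libraries (SD, n = 3 each; log2 fold change 0.53, SE 0.26). In DOCK5 all BHB libraries lay below all controls, as in 3.78% of tested genes. In TGFB2 all BHB libraries lay above all controls, as in 4.06% of tested genes. Neither gene passed the test.

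Between pairs, with treatment in the model, edgeR called 524 genes (4.12%). It called 0 of the 10 members. At an unadjusted p under 0.05 it had 2 of the 10 (WWTR1 and NF2), and 2627 of the 12732 tested genes. DESeq2's likelihood ratio test, which called 5.16% of genes, also called 0 of 10. Of the 18 targets, edgeR called 3 (ANKRD1, AXL and NT5E), and DESeq2 called 4, adding MYOF. ANKRD1, an ankyrin repeat protein of the nucleus, was at 5.39, 29.8 and 17.1 CPM in BHB libraries 1 to 3, against 4.14, 15.8 and 19.5 CPM in control libraries 1 to 3 (adjusted p = 0.0104 between pairs). The receptor tyrosine kinase gene AXL was at 0.269, 2.91 and 3.21 CPM in BHB libraries, against 0.534, 3.45 and 8.45 CPM in control libraries (adjusted p = 0.0209 between pairs). Both pair 1 libraries were thus the lowest for both genes, with AXL resting on 2 counts in BHB 1 and 4 in control 1. Without pair 1, NT5E was the 1 target called, where 0.497% of genes were. Of the 79 other pathway genes DESeq2 called 6 and edgeR called 1, RDX, an actin linker of the family of merlin, which was at 90.8 CPM in BHB 1 and 76.9 CPM in control 1, and at 129 to 137 CPM in the other 4 libraries.

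Some lineage markers moved with the pairs too. Of 8 trophectoderm markers, 3 were called between pairs, where edgeR called 4.12% of all tested genes. These were the keratin genes KRT8, KRT18 and KRT19 (adjusted p = 0.00706, 0.0169 and 0.034 in edgeR). The 8 summed to 13550, 11870 and 8389 CPM in BHB libraries 1 to 3, against 17240, 15850 and 10760 CPM in control libraries 1 to 3. The sum was lower with BHB in each pair and lowest in pair 3 within each group. KRT8 alone made up most of it, with 9804, 8217 and 5706 CPM in BHB libraries 1 to 3. The 3 keratin genes were lower with BHB in each pair, and CDX2 and TFAP2C were higher in each pair. GATA2, GATA3 and TFAP2A differed in direction between pairs. Without pairing, 0 of the 8 passed between BHB and control. Of the markers of primitive endoderm 2 of 5 were called between pairs, PDGFRA and HNF4A. The 5 summed to 194.8 CPM in BHB 1 and 173.5 CPM in control 1, against 250.2 to 263 CPM in the other 4 libraries. Most of that gap came from PDGFRA, at 57.7 CPM in BHB 1 and 40.7 CPM in control 1, against 82.1 to 106.1 CPM in the other 4. HNF4A was also lowest in pair 1 within each group, while GATA4, GATA6 and COL4A1 were not lowest there in both groups. Of 5 inner cell mass markers 0 were called, with sums of 552.1 to 622.3 CPM in BHB libraries and 577.4 to 640.1 CPM in control libraries. Of 5 fibroblast markers 0 were called, with sums of 58.6 to 90.3 CPM in BHB libraries and 69.5 to 74.6 CPM in control libraries. The part of cell make-up in the values of the members, the targets and RDX was not tested.

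**Figure D4:**
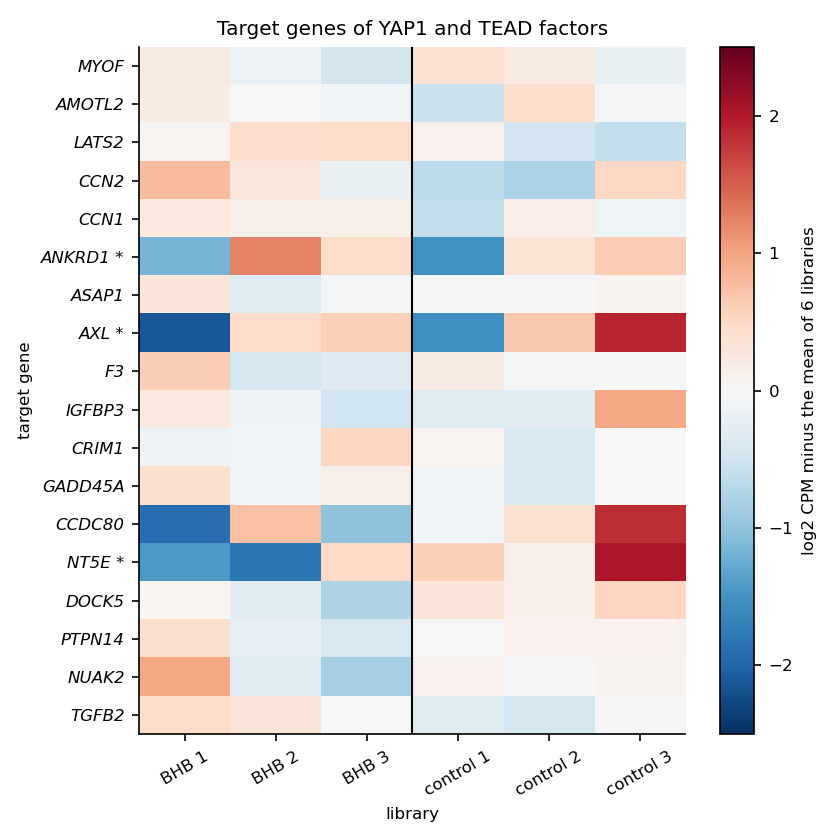
Log2 CPM of 18 target genes in each library minus the mean of that gene over 6 libraries, with BHB libraries on the left and control libraries on the right of the black line; asterisks mark the 3 genes called between pairs. ANKRD1 and AXL are lowest in both libraries of pair 1, and both directions occur among the 18 genes between BHB and control.

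A list of 10 lineage genes held CDX2 and GATA3, which lie downstream of TEAD4 in the mouse embryo. Of the 10, 7 were in the table, 2 with a positive and 5 with a negative log2 fold change (median -0.02). CDX2 was at 9.83, 4.29 and 6.27 CPM in BHB libraries, against 6.81, 3.71 and 5.87 CPM in control libraries. It overlapped between groups, although the BHB library was higher in each pair (log2 fold change 0.32, SE 0.39). GATA3 averaged 136 ± 8.86 CPM in BHB and 138 ± 26.6 CPM in control libraries (SD, n = 3 each). TFAP2C, another trophectoderm factor, was higher with BHB in each pair (log2 fold change 0.37, SE 0.18, unadjusted p = 0.067 in edgeR without pairing). The blocked edgeR test gave TFAP2C 0.40 (SE 0.12), with unadjusted p = 0.00767 and adjusted p = 0.444. The keratin genes KRT8 and KRT18 were lower with BHB in each pair. Their log2 fold changes without pairing were -0.38 (SE 0.24) and -0.39 (SE 0.21), with unadjusted p = 0.144 and 0.104 in edgeR. The blocked edgeR test gave -0.39 (SE 0.077) and -0.38 (SE 0.084). Its unadjusted p was 0.000509 and 0.00103, and its adjusted p was 0.209 and 0.263. KRT8 and KRT18 were also the 2 of the 7 called between pairs by edgeR, which called 4.12% of all tested genes. NANOG, which marks the inner cells, was at 30.7, 33.4 and 51.2 CPM in BHB libraries, against 72.4, 60.7 and 73.4 CPM in control libraries. It did not pass without pairing. NANOG fell by 0.87 on the log2 scale in DESeq2's test within pairs (adjusted p = 0.00887), which called 0.273% of all genes. The blocked edgeR test gave NANOG an adjusted p of 0.183. Of the other inner cell mass markers in the table, POU5F1, DPPA3 and GDF3 had log2 fold changes of -0.01, 0.11 and -0.43 without pairing. KLF17 went the other way from NANOG (log2 fold change 0.72). It was at 34.2, 24.2 and 33.0 CPM in BHB libraries, against 15.4, 17.9 and 22.3 CPM in control libraries.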

How the data were processed

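The authors deposited whole-number counts per gene, not normalized, for 3 BHB and 3 control libraries, and a table of their own comparison. Per the labels' protocols, RNA of pooled blastocysts was treated with DNase and polyadenylated RNA was made into stranded libraries. STAR, featureCounts and DESeq2 are named per the submitters' processing notes; the sources used here name no version, genome build or strand setting. The authors' deposited table holds a mean count (a linear signal), a log2 fold change as control over BHB, its error, a test statistic (a score) and p-values. Replicate numbers follow the order of deposit. No label says that the pools were independent batches of embryos, so the spread behind each p-value may be technical.

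Counts were filtered with filterByExpr (94 genes removed), scaled with TMM and tested with edgeR 4.0.16 in R 4.3.3, after a check on simulated data. DESeq2 1.42.0 (over all 12826 genes) and limma 3.58.1 (voom) were alternatives. SE is the fold change divided by the root of F. Ratios used counts plus 1. A DESeq2 likelihood ratio test with pairs matched the deposited p-values to within 1e-06 for 99.98% of genes. The other 5 pairings did so in at most 0.398%. Deviations from group means correlated at 0.46, 0.32 and 0.33 within pairs. The pairing is not in the labels. Members, lists and tests were chosen with earlier results of these libraries known. Named genes are the members and, per list, those past the threshold or else the 3 with the smallest p, and the genes most like TEAD4 or YAP1; other names were chosen after their values were seen. Of the genes so named, 2 are left out. PALS1, CCN1 and CCN2 were matched through older symbols of the ARS-UCD2.0 gene table, which was used for names and neighbours alone. In it TEAD4, TEAD1, VGLL4 and LATS1 each overlap 1 other gene, and 0 of these are in the count table. Genes of similar sequence, such as paralogues, may share reads.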

Additional observations from a re-analysis of the deposited data

How the results depend on the processing

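No member passed in any alternative run: other scaling, other filters on low counts, DESeq2, limma-voom, the replicate block or leaving out 1 library (smallest adjusted p 0.398 over 140 recomputed values). Direction was kept in 132 of the 140. The 8 that turned all came from leaving out 1 library, and such fits keep the partner of that library and so mix pair with treatment. TEAD1 ran from -0.057 to 0.077 on the log2 scale, YAP1 from -0.079 to 0.086, VGLL4 from -0.11 to 0.42, NF2 from -0.10 to 0.32 and AMOTL2 from -0.16 to 0.33. WWTR1 ran from 0.28 to 0.69, TEAD4 from 0.08 to 0.33, LATS1 from 0.007 to 0.26, LATS2 from 0.52 to 0.92 and AMOT from -0.31 to -0.12. The AMOTL2 to AMOT ratio ran from -0.018 to 0.61 and turned without control 1. The ratio of YAP1 to WWTR1 ran from -0.66 to -0.26, that of TEAD4 to TEAD1 from 0.086 to 0.38 and that of LATS2 to LATS1 from 0.26 to 0.88. The difference within pairs was the same by construction. The exact sign permutation p within pairs was 0.25 for YAP1 to WWTR1 and higher for the other ratios. With so few pairs, that test cannot go below 0.25.

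Over all genes, DESeq2's Wald test called 6 genes, its form with the replicate block 35, and edgeR 0 to 1 when 1 library was left out (1 without BHB 2), against 0. Of the target genes, DESeq2 with the replicate block called 1 (NT5E), against 0, and without pair 1 the edgeR test between pairs called 1, against 3. The settings of the test between pairs of target genes, and the fit without pair 1, were added after seeing the data. Depth limits LATS2, with 27 to 50 counts per library, most among the members; the fold intervals of the other members rest mainly on the spread between 3 libraries a group.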

Other observations

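Over the 6 libraries, 25 of the 45 pairs of members had a positive correlation of log2 CPM (median r = 0.11). VGLL4 and NF2 (r = 0.86), TEAD4 and NF2 (r = 0.84) and TEAD1 and AMOTL2 (r = 0.82) varied most alike. WWTR1 and AMOT (r = -0.82) varied most in opposition, and YAP1 and TEAD4 had r = -0.70. YAP1 and its paralogue WWTR1 had r = 0.34. These values describe 6 libraries that share pairs and depth, and no p was computed.

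The tested genes whose log2 CPM followed TEAD4 most closely over the 6 libraries were LIN28B, an RNA-binding protein gene (r = 0.99), TP63, a transcription factor of epithelia (r = 0.98), and ATP6V1C2, which encodes a subunit of the vacuolar proton pump (r = 0.98). Those closest to YAP1 were RPS19BP1 (r = 0.99), DZIP1 (r = 0.99) and METTL18 (r = 0.99). They were picked as the highest of 10729 candidate genes and are given as a description.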
